A study of Mus musculus with 42 samples.

Results

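Carboxylesterase transcripts of the mouse colon were followed through 9 genes of 20462 listed in at least 1 table. They are *Ces1c*, *Ces1d*, *Ces1e*, *Ces1f* and *Ces1g* of the *Ces1* subfamily and *Ces2a*, *Ces2c*, *Ces2e* and *Ces2g* of the *Ces2* subfamily. They were picked by symbol, and all 9 are listed in all 9 tables. *Ces1c* and *Ces1d* entered the choice because their levels differ with *Mtg16* genotype in these same tables, so their genotype differences are described by their values, without a test, and only the other 7 genes were tested there. Comparisons among WT mice did not enter the choice and were tested.

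RNA was sequenced from colon crypts and tumors of *Mtg16*-null mice and of mice homozygous for the P209T substitution in MTG16 (T/T). MTG16, the product of the gene *Cbfa2t3*, is a transcriptional corepressor, and P209T weakens its contact with E proteins, the helix-loop-helix factors that bind E-box sequences. The T/T line thus asks which effects of losing MTG16 run through E proteins. All mice were C57/BL6 and 8 weeks old or older, both mutations are carried in every cell of the animal, and each mutant group has WT littermates from its own colony.

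At baseline, proximal crypts (the 5 cm next to the cecum) were sequenced as 2 *Mtg16*-null libraries with 2 WT and 2 T/T libraries with 2 WT. Distal crypts (the 5 cm next to the anus) gave 4 *Mtg16*-null and 4 WT libraries, and 4 T/T and 3 WT libraries. Distal crypts were also taken after injury with dextran sulfate sodium (DSS), given at 2% in the drinking water for 5 days and followed by 4 days of water, as 4 *Mtg16*-null and 3 WT and as 3 T/T and 3 WT libraries. Distal tumors (3 T/T and 3 WT libraries) came from mice that received 10 mg/kg of the carcinogen azoxymethane (AOM) and 3 cycles of 3% DSS (4 days of DSS and 16 days of water each). Crypts are a mixture of epithelial cell types, and tumors are whole dissected tissue, so in all of these samples fewer cells of a type and less RNA per cell cannot be told apart. The labels do not tie replicate numbers to separate mice, so p-values measure only the spread between these libraries.

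Carboxylesterases are serine hydrolases of the endoplasmic reticulum that cleave esters, amides and thioesters. They activate or clear many ester drugs and take part in the turnover of triacylglycerol and cholesteryl esters. *Ces1* enzymes are best known from the liver and *Ces2* enzymes from the intestine, where they meet ingested esters first and convert drugs such as irinotecan. The mouse has many more genes of both subfamilies than humans do, arranged as tandem copies.

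The members lie in 2 tandem arrays on chromosome 8 (GRCm38, GENCODE vM21). The 5 *Ces1* genes span chr8:93099015-93337308 on the minus strand, with no other protein-coding gene inside. The 4 *Ces2* genes span chr8:104734003-104969537 on the plus strand, with *Ces2b* and *Ces2f* between them. *Cbfa2t3* is on the same chromosome, at chr8:122625141-122699109, 29288 kb beyond the *Ces1* genes and 17656 kb beyond the *Ces2* genes. Tandem copies share sequence, and the counting divides such reads by estimate. Of the stretches of 31 bases in its transcripts, *Ces2c* shared 58.2% with other genes, mostly with the pseudogene *Ces2d-ps*, *Ces2a* shared 37.4%, mostly with *Gm7208*, and *Ces1c* shared 30.1%, mostly with *Ces1b*. The other 6 members shared 5.54 to 12.8%, and values of *Ces2c*, *Ces2a* and *Ces1c* are less certain for this reason.

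Upstream sequences are shown for 2 pairs of genes. RefSeq (GRCm38.p6) gave the 250 bases before the start for 7 of the 9 members, and *Ces1d* and *Ces1f* had no entry. *Ces1c* and *Ces1b*, its neighbour and closest copy, are shown because they share transcript sequence and *Ces1c* had the widest span of levels. Capitals mark CANNTG, the E-box, searched on both strands. The *Ces1c* window is chr8:93131284-93131533 and the *Ces1b* window chr8:93079941-93080190, both written along the minus strand.
Ces1c: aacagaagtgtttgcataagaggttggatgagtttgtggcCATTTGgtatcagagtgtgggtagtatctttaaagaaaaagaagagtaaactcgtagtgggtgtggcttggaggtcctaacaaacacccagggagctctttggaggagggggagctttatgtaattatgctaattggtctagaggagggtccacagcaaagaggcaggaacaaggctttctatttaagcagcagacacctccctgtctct
Ces1b: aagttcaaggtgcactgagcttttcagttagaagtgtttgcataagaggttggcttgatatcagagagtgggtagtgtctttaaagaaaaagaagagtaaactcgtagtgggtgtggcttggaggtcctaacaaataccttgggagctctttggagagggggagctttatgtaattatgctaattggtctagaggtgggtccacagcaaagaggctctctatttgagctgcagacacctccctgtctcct
The windows were 84.4% identical, and the transcripts 84.8%. The single CANNTG match of *Ces1c*, CATTTG, began 210 bases before the start, and the *Ces1b* window held none. *Ces1e* had 1 match (CAACTG, 226 bases before the start) and *Ces1g* had 1 (CATTTG, 78 bases before the RefSeq start, which lies inside the gene as GENCODE places it). Of 32851 RefSeq windows of the same length, 66.2% held CANNTG, so a match is common.

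*Ces2e* and *Ces2g*, with *Ces2f* between them, are shown because they had opposite patterns along the colon. Here capitals mark CAAAGT on either strand, the core of the element bound by the nuclear receptor HNF4. The *Ces2e* window is chr8:104926010-104926259 and the *Ces2g* window chr8:104961468-104961717, both on the plus strand.
Ces2e: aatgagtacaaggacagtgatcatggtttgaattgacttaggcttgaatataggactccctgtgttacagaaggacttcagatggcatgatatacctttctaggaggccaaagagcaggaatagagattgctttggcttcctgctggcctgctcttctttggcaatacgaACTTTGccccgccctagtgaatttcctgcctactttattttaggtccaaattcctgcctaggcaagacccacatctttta
Ces2g: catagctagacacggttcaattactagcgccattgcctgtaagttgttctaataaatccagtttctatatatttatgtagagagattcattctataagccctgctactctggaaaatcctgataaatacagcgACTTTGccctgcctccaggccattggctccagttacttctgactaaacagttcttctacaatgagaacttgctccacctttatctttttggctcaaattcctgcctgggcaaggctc
These windows were 58.0% identical and the transcripts 70.6%. Each held the match on the minus strand, read here as ACTTTG, 80 bases before the start in *Ces2e* and 117 in *Ces2g*. *Ces2a* also held it, 70 bases before the start, and *Ces2c* did not. CAAAGT was found in 12.6% of all windows. GTTAAT, part of the element bound by HNF1, was in 6.43% of all windows and in none of the 7. These matches describe letters in the windows and were not tested as binding sites.

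Whole reads could be recovered for 38 of the 42 libraries, which held 32231389 to 74661922 reads on genes (median 46659625). *Cbfa2t3* was lower in every *Mtg16*-null group (424 to 1095 against 1027 to 1809 normalised counts in distal crypts), with the groups overlapping there through replicate 2 (1095), and was not lower in T/T crypts or tumors. On a scale built from 846 genes with at least 4-fold difference between WT segments, where 0 is proximal and 1 is distal, the library labelled distal *Mtg16*-null replicate 2 lay at 0.0747. The other 14 baseline distal libraries lay at 0.947 to 1.03 and the proximal ones at -0.0196 to 0.0388. The distal *Mtg16*-null comparison of the members, and its difference from the effect after DSS, are therefore also given without it, while levels in CPM include it. After DSS the WT libraries lay at 0.889 to 0.95 and the mutant libraries at 0.678 to 0.809, and tumors lay at 0.603 to 0.661.

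**Figure D1:**
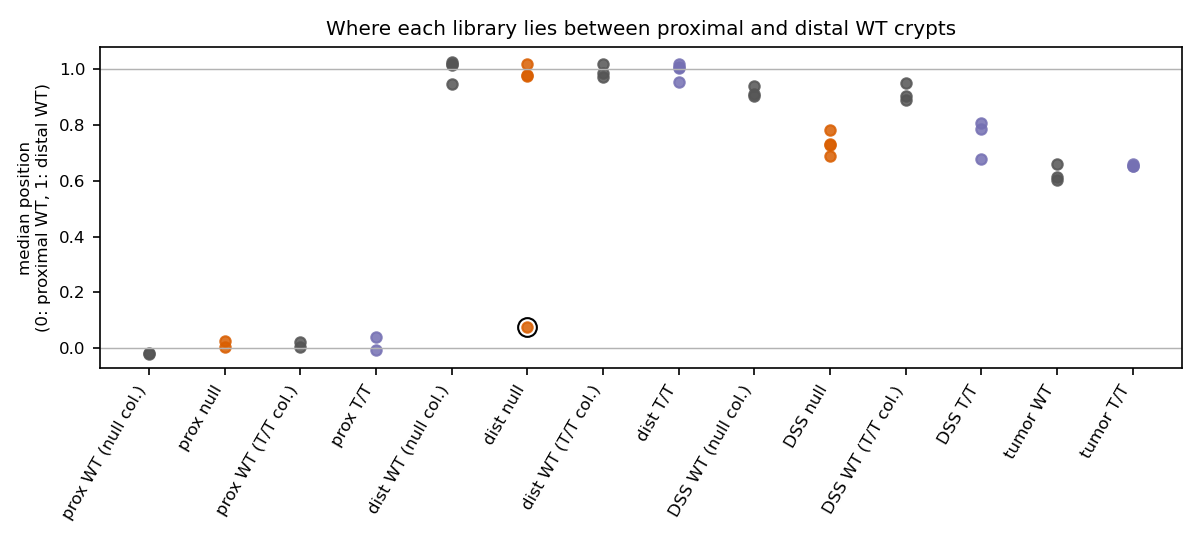
Position of each of the 42 libraries between WT proximal (0) and WT distal (1) crypts, as the median over 846 genes (y axis), by condition (x axis, 1 point per library, WT grey, *Mtg16*-null orange, T/T purple). The library labelled distal *Mtg16*-null replicate 2, ringed in black, lies at 0.0747 beside the proximal libraries.

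The family was most abundant in proximal crypts and least abundant in tumors. Conditions in different tables were compared by level in CPM, a gene's counts scaled to each library's own total. On this scale the 9 members together reached 1395 ± 109 (SD, n = 2) in proximal WT crypts of the T/T colony and 1453 ± 237 (n = 2) in those of the *Mtg16*-null colony. Distal WT crypts had 810.1 ± 97.6 (n = 3) and 779 ± 27.7 (n = 4), and WT tumors 111 ± 47.8 (n = 3). T/T tumors had 170.1 ± 67.3 (n = 3).

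Levels between genes were compared per kilobase of transcript. *Ces2c*, *Ces2e* and *Ces2a*, the drug-hydrolysing intestinal enzymes, made up 86.3% and 86.9% of the family's summed level per kilobase in distal WT crypts of the 2 colonies, 70.8% and 77.9% in proximal WT crypts and 61.0% in WT tumors. The 5 *Ces1* genes had 29.0% and 21.8% in proximal WT crypts, and 10.1% and 8.84% in distal WT crypts. *Ces2g* made up 0.246% and 0.289% in proximal WT crypts, 3.62% and 4.22% in distal WT crypts and 13.1% in WT tumors. These shares are descriptions and were not tested.

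By level, *Ces2c* ranged from 600.0 CPM in proximal T/T crypts to 26.3 in WT tumors, *Ces2e* from 405 to 33.0 and *Ces2a* from 279.6 to 10.2, with the same conditions at either end. *Ces1f* ranged from 171.7 in proximal T/T crypts to 3.75 in T/T tumors, and *Ces1e* from 25.2 to 0.723 in WT tumors. In these 5 genes, neighbouring conditions in the order mostly overlapped (10 to 12 of 13 neighbouring pairs), and tumors lay below every crypt condition. *Ces1g* ran from 210.5 in proximal WT crypts of the *Mtg16*-null colony to 1.53 in T/T crypts after DSS, and its tumors (13.9 in WT, 12.6 in T/T) lay within the range of distal crypts. *Ces2g* had its lowest levels in proximal crypts (4.73 to 6.47) and its highest in distal WT crypts of the T/T colony (44.6).

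**Figure D2:**
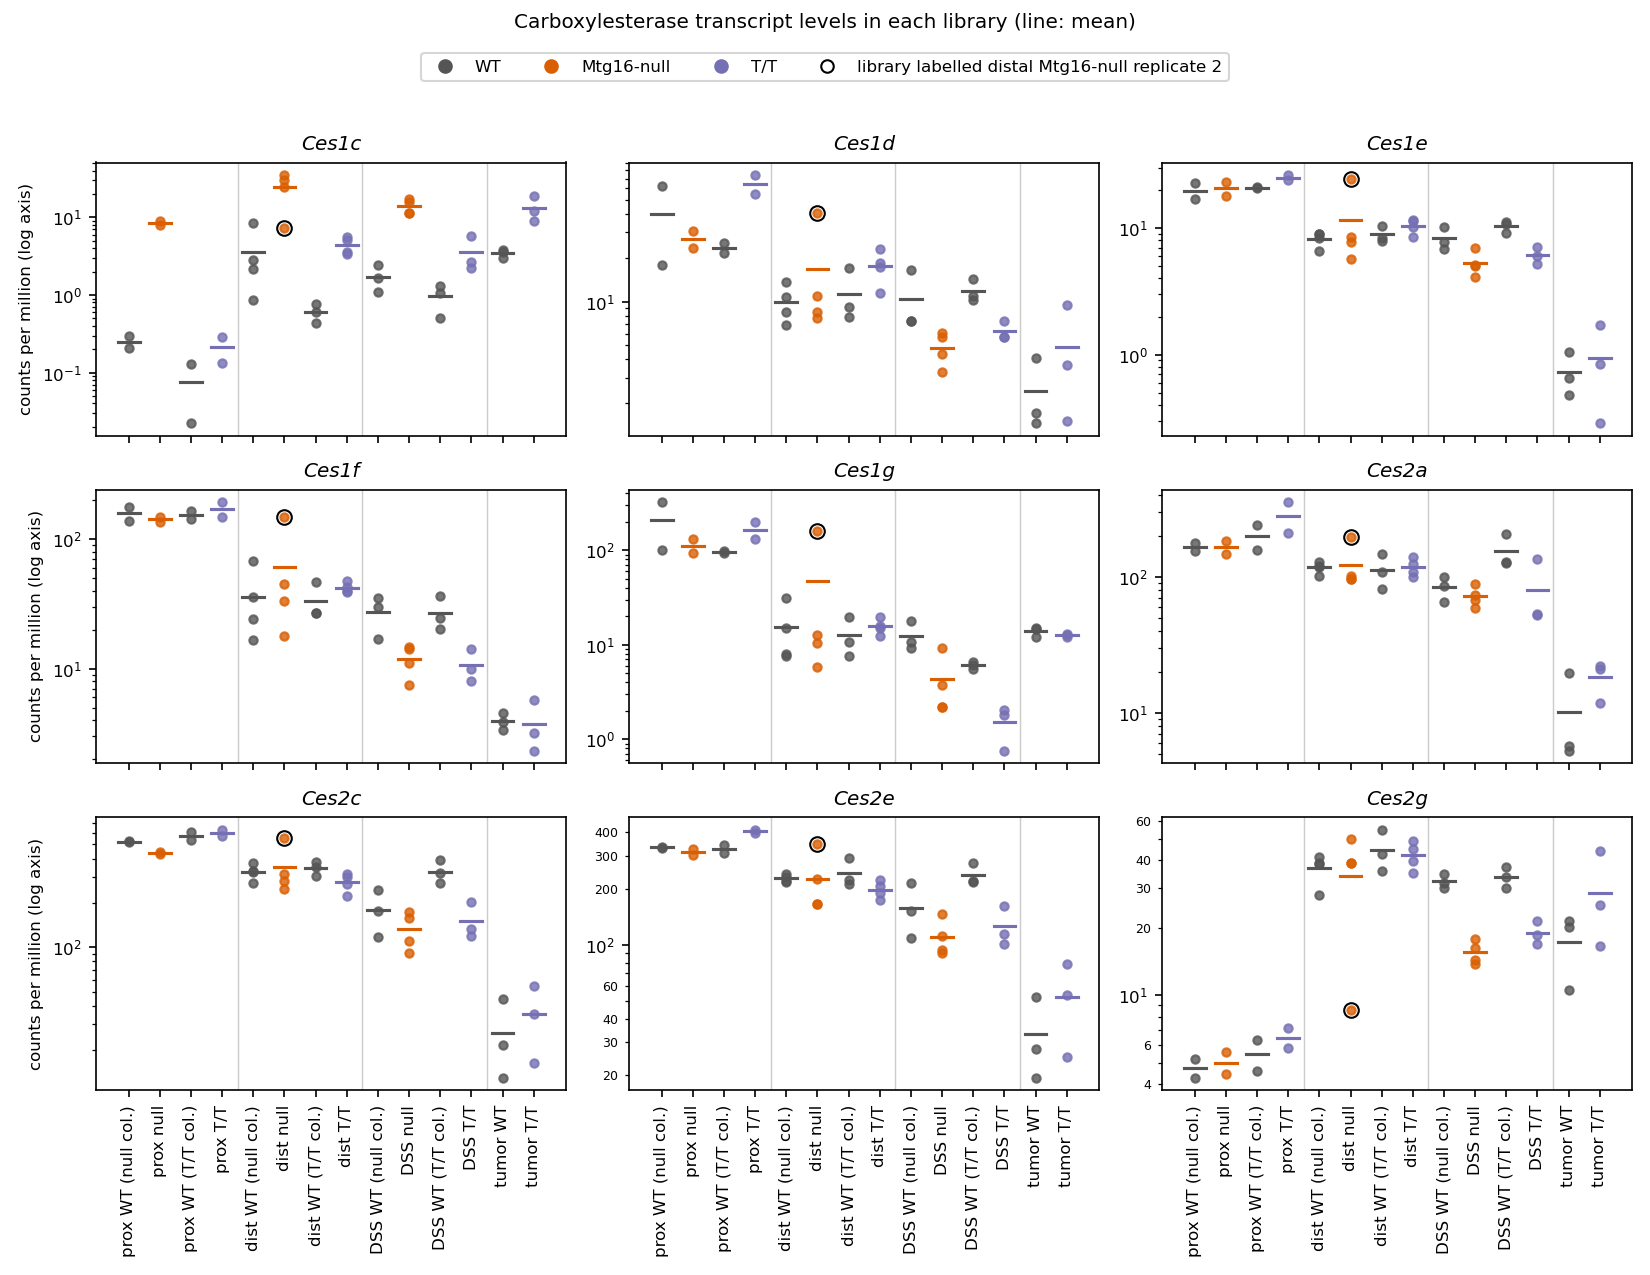
Level of each of the 9 genes in each of the 42 libraries, in CPM (y axes, log scale), by condition (x axes), with a line at the mean of a condition and WT in grey, *Mtg16*-null in orange and T/T in purple. *Ces1c* is lowest in proximal WT crypts and highest in distal *Mtg16*-null crypts, *Ces2g* is lowest in proximal crypts, and 7 of the genes are highest in proximal crypts.

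*Ces1c*, the secreted plasma carboxylesterase of mice, had the widest span of levels. From the highest, the mean CPM were 24.4 ± 12.1 in distal *Mtg16*-null crypts (n = 4), 13.9 ± 2.97 in *Mtg16*-null crypts after DSS (n = 4), 13.2 ± 5.00 in T/T tumors (n = 3) and 8.52 ± 0.726 in proximal *Mtg16*-null crypts (n = 2). These 4 conditions overlapped from neighbour to neighbour, the highest only through the library labelled distal *Mtg16*-null replicate 2 (7.35). The other 3 distal *Mtg16*-null libraries had 24.9 to 35.3 CPM. Proximal *Mtg16*-null crypts did not overlap the condition next in order. Then came 4.41 ± 1.13 in distal T/T crypts (n = 4), 3.61 ± 3.42 in distal WT crypts of the *Mtg16*-null colony (n = 4), 3.54 ± 1.94 in T/T crypts after DSS (n = 3) and 3.45 ± 0.423 in WT tumors (n = 3), each overlapping the next. WT crypts after DSS followed with 1.73 ± 0.683 and 0.957 ± 0.404 in the 2 colonies (n = 3 each), then distal WT crypts of the T/T colony with 0.596 ± 0.166 (n = 3). Proximal WT crypts of the *Mtg16*-null colony (0.249 ± 0.0627, n = 2), proximal T/T crypts (0.211 ± 0.108, n = 2) and proximal WT crypts of the T/T colony (0.0748 ± 0.0744, n = 2) were lowest, and the last did not overlap the one above. The 2 distal WT groups did not overlap in *Ces1c* (0.849 to 8.59 against 0.430 to 0.763). They differ in colony and partly in request, the prefix of the library number, which is read here as a batch.

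*Ces1d*, a triacylglycerol hydrolase, had its highest level in proximal crypts and its lowest in tumors, and every condition overlapped its neighbour in the order. The mean CPM were 64.8 ± 13.5 in proximal T/T crypts (n = 2), 40.1 ± 31.5 in proximal WT crypts of the *Mtg16*-null colony (n = 2), 27.1 ± 5.26 in proximal *Mtg16*-null crypts (n = 2) and 23.4 ± 2.55 in proximal WT crypts of the T/T colony (n = 2). Distal baseline crypts had 17.5 ± 4.81 in T/T (n = 4), 16.9 ± 15.8 in *Mtg16*-null (n = 4, or 9.02 ± 1.69 without replicate 2, n = 3), 11.3 ± 4.97 in WT of the T/T colony (n = 3) and 9.92 ± 2.92 in WT of the *Mtg16*-null colony (n = 4). After DSS the 2 WT groups had 11.8 ± 2.22 and 10.3 ± 5.21 (n = 3 each), T/T 6.25 ± 0.968 (n = 3) and *Mtg16*-null 4.83 ± 1.28 (n = 4). Tumors had 4.87 ± 4.09 in T/T and 2.44 ± 1.47 in WT (n = 3 each).

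The first test compared distal with proximal crypts of WT mice. *Ces1c* and *Ces2g* had higher counts distally, and the other 7 members were higher proximally, most of all *Ces1g* and *Ces1f*. *Ces1c* reached the required mean count of 10 only through its distal libraries and is described by its values. The other 8 all passed the test (limma on log2 of the normalised count plus 1, adjusted p under 0.05 over 13841 genes), and no member's groups overlapped. In this comparison 20.1% of genes were called higher distally and 22% lower, and the groups did not overlap in 14.1% (higher) and 15.9% (lower). The median difference over the 8 was -1.03 (log2) against 0.00475 over all genes.

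For *Ces1c* the normalised counts in the 4 proximal libraries were 12.7, 9.69, 1.03 and 5.80, and in the 7 distal libraries they ran from 18.8 through a median of 38.4 to 373. The lowest distal library stood above every proximal one, although counts this low carry much counting error. The means were 7.32 and 102, a difference of 3.20 in mean log2 count. *Ces2g* had 225, 202, 213 and 287 in proximal libraries and 1319, 1764 and 2404 as the lowest, median and highest distal ones, a difference of 2.92 ± 0.139 (log2, SE, adjusted p = 1.73e-09). The lowest distal library stood far above the highest proximal one.

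*Ces1g*, a lipid-regulating hydrolase, had 13945, 4698, 4563 and 4211 in proximal libraries against 341, 455 and 1366 (lowest, median and highest) in distal ones. Its difference was -3.43 ± 0.408 (adjusted p = 1.31e-05), and 1 proximal library stood far above the others. *Ces1f* had 6528 to 7778 in proximal libraries against 775, 1203 and 2937 in distal ones (-2.34 ± 0.278, adjusted p = 1.3e-05). Both genes thus had a proximal lead of more than 4-fold. *Ces1d* (844 to 2704 against 312, 409 and 745) differed by -1.51 ± 0.299 (adjusted p = 0.00105). *Ces1e*, known as egasyn for holding beta-glucuronidase in the endoplasmic reticulum, had 732 to 1072 against 306, 379 and 455 and differed by -1.30 ± 0.122 (adjusted p = 1.36e-06).

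The abundant *Ces2* genes differed less. *Ces2c* had 22904, 24305, 25027 and 27393 in proximal libraries and 11868, 15013 and 17479 as the lowest, median and highest distal ones (-0.76 ± 0.102, adjusted p = 4.15e-05). *Ces2a* had 7241 to 10907 against 3436, 5094 and 6563 (-0.70 ± 0.161, adjusted p = 0.00315), and *Ces2e* had 14372 to 15744 against 9400, 9935 and 12777 (-0.55 ± 0.0823, adjusted p = 0.000113). All 3 stayed abundant in distal crypts. The libraries carry different request numbers. Among the libraries of request 4149 alone, 4 of the 8 were called (*Ces1e*, *Ces1g*, *Ces2e* and *Ces2g*) and 2014 genes in all, and with request as a covariate *Ces2a* was not called (-0.43, adjusted p = 0.287).

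**Figure D3:**
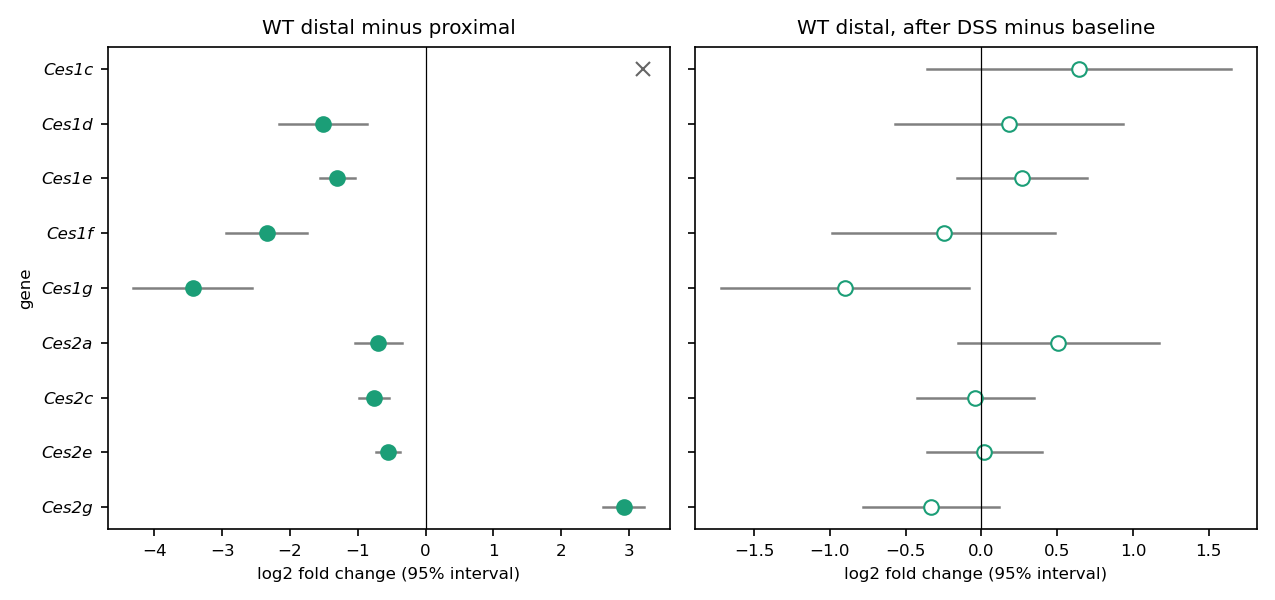
Log2 fold changes of the 9 genes in WT crypts (x axes, points with 95% intervals), for distal minus proximal (left) and for distal after DSS minus baseline (right), with filled points for adjusted p under 0.05 and a cross, with no interval, for a gene whose mean count was below 10 in 1 group. On the left the 8 tested points are filled, *Ces2g* (2.92) alone of them to the right of 0, *Ces1c* (3.20) is a cross, and on the right none is filled.

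The next comparison asked what remained different in WT distal crypts of the T/T colony 4 days after DSS. No member passed the test, while 35.6% of the 13566 genes tested did, and 1 member, *Ces1g*, had an unadjusted p under 0.05 (50.3% of all genes). Leaving out 1 library moved the number of genes called from 4833 to as few as 1 (without baseline WT replicate 2) or as many as 9086 (without WT replicate 3 after DSS), with 0 members called each time. *Ces1g*'s normalised counts were 295, 328 and 262 after DSS and 496, 924 and 363 at baseline, so every library after DSS lay below every baseline library, as in 29.3% of all genes. The difference was -0.90 ± 0.343 (adjusted p = 0.0783). It was called by DESeq2 on recovered reads (-1.02, adjusted p = 0.0217), where 44.1% of genes were called, and not by edgeR (32.2%).

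*Ces1c* had 24.7, 64.1 and 50.6 after DSS and 35.2, 20.2 and 28.3 at baseline, with overlapping groups (0.65 ± 0.42, adjusted p = 0.248). For the abundant genes *Ces2c* and *Ces2e* the groups overlapped, and the 95% interval of the difference was -0.43 to 0.34 for *Ces2c* and -0.36 to 0.40 for *Ces2e*. The groups carry different request numbers (5740 after DSS and 5094 at baseline), so request and DSS cannot be told apart here. These WT libraries are also the controls of the T/T comparisons given further on. In WT crypts of the *Mtg16*-null colony, compared here by level only and without a test, the 9 members together had 751 to 803 CPM at baseline and 364 to 662 after DSS. *Ces2c* had 273 to 373 CPM at baseline and 118 to 245 after DSS, *Ces2e* had 216 to 240.2 and 108 to 214, and *Ces2a* had 101 to 129 and 65.1 to 99.01. The groups of these 3 genes did not overlap and those of the other 6 did, but the share of all genes without overlap was not computed here. In the T/T colony 29.3% of genes lay wholly lower after DSS. The ranges are a description only, and here too request and DSS cannot be told apart.

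The genotype comparisons at baseline share their WT libraries with the comparison of segments. In the mutants, *Ces1c* had its largest ratio in proximal *Mtg16*-null crypts. The normalised counts were 437 and 396 in *Mtg16*-null and 13.7 and 10.3 in WT, a 34.6-fold ratio of means. Both mutant libraries lay far above both WT libraries, and 17.5% of genes tested had non-overlapping groups in that direction. In distal crypts the *Mtg16*-null libraries had 1380, 335, 1090 and 1625 and the WT libraries 39.3, 130, 384 and 102, a 6.77-fold ratio. The groups overlapped through the library labelled distal *Mtg16*-null replicate 2 (335), and without it they did not (1365 ± 268, n = 3, against 164 ± 151, n = 4, 8.34-fold). Without that library, 4.2% of genes had mutant groups wholly above WT.

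T/T crypts also had more *Ces1c* distally. The T/T counts were 211, 132, 208 and 147 and the WT counts 30.3, 17.6 and 24.5, a 7.22-fold ratio without overlap (4.39% of genes). In proximal crypts *Ces1c* stayed near the detection limit, at 12.7 and 6.04 in T/T and 1.00 and 5.58 in WT, below the mean count of 10 required for testing. So proximal T/T crypts held far fewer *Ces1c* counts than proximal *Mtg16*-null crypts, although the 2 mutants sit in different tables, colonies and requests and were not compared by a test.

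The ratio was present after DSS as well. *Mtg16*-null crypts had 651, 912, 638 and 896 against 139.5, 92.8 and 58.4 in WT (7.99-fold, no overlap, 6.18% of genes). T/T crypts had 103, 285 and 137 against 26.8, 69.1 and 53.4 (3.51-fold, no overlap, 5.66% of genes). In tumors T/T had 436, 579 and 890 and WT 144, 172 and 189 (3.77-fold, no overlap, 2.98% of genes). Mutant libraries thus lay above WT libraries in each of the 7 genotype comparisons except distal *Mtg16*-null with replicate 2 included. In proximal T/T crypts the counts were too low to test, and 22.6% of genes tested lay wholly higher there. *Ces1c* was chosen for its genotype difference, so this tally is a description and not support for it. As a share of the family's summed level per kilobase, *Ces1c* made up 0.0201% in proximal WT and 0.811% in proximal *Mtg16*-null crypts.

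**Figure D4:**
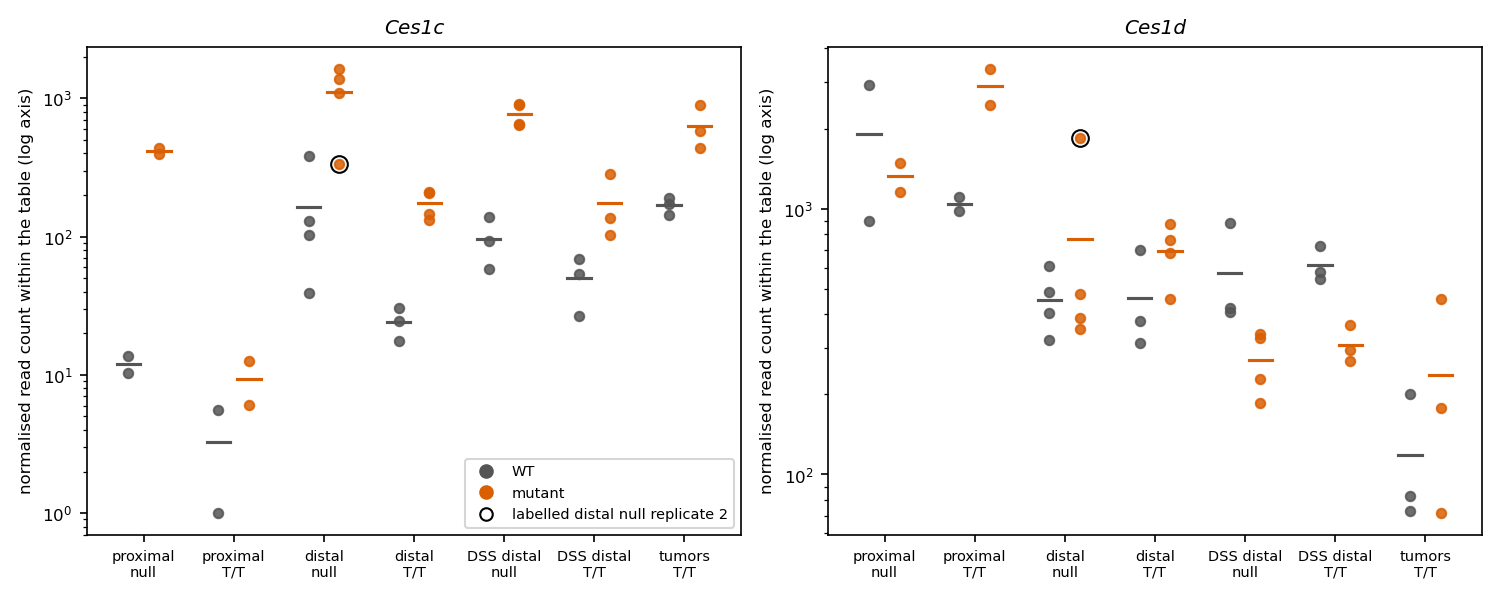
Normalised counts of *Ces1c* and *Ces1d* in each library within each of the 7 genotype comparisons (y axes, log scale), with WT in grey, mutants in orange, a line at each mean and the library labelled distal *Mtg16*-null replicate 2 ringed. For *Ces1c* mutant points lie above WT points in each pair except for that library, and for *Ces1d* they lie below WT after DSS and above WT in proximal T/T crypts.

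*Ces1d* showed no single direction across the mutants. In proximal T/T crypts it had 2442 and 3343 against 976 and 1102 in WT, a 2.78-fold ratio (1.46 on the log2 scale) without overlap, as in 22.6% of genes. In proximal *Mtg16*-null crypts the counts were 1489 and 1155 against 2916 and 900.3 in WT, and the groups overlapped. Distal groups overlapped too, with 876, 679, 457 and 762 in T/T against 311, 698 and 377 in WT. Distal *Mtg16*-null libraries had 352, 1841, 478 and 388 against 320, 484, 609 and 405, where the 1841 belongs to replicate 2. Without that library the mean was 406 ± 64.9 (n = 3) against 455 ± 123 (n = 4).

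After DSS the direction of *Ces1d* was opposite to that of *Ces1c*. *Mtg16*-null crypts had 186, 229, 339 and 327 against 422, 407 and 886 in WT, a ratio of 0.473, and T/T crypts had 266, 363 and 293 against 579, 544 and 720.2, a ratio of 0.501. Neither pair of groups overlapped, and 5.26% and 8.02% of genes had mutants wholly below WT in these comparisons. Tumors overlapped, with 178, 458 and 71.7 in T/T and 200.1, 82.8 and 73.0 in WT.

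Limma without a block called none of the other 7 members in baseline mutant crypts. In proximal *Mtg16*-null crypts 0 of 7 were called (0.0645% of genes called by limma) and 0 had an unadjusted p under 0.05 (5.96% of genes). *Ces2c* had 21612 and 21103 in *Mtg16*-null against 24700 and 25915 in WT, the only one of the 7 without overlap, in a direction that 18.1% of genes shared. *Ces1g* had the widest difference of the 7, -0.68 (adjusted p = 0.909), which rests on 1 WT library (4536 and 6433 against 15039 and 5009). Without that WT library, which leaves 1 WT library, it was 0.11.

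In distal *Mtg16*-null crypts 0 of 7 were called (0.239% of genes) and 0 had an unadjusted p under 0.05 (4.63%), and neither edgeR (0.21%) nor DESeq2 (1.45%) called any. Differences ranged from -0.38 to 0.50. *Ces1g* (0.50), *Ces1f* (0.49) and *Ces2g* (-0.38) were the widest, and their signs rested on replicate 2. That library had 7254 counts of *Ces1g* where the other 3 had 266 to 555, and 389 of *Ces2g* where the others had 1786 to 2188. Without it 0 of 7 were called (1.04% of genes) and the values became -0.53 for *Ces1g*, -0.087 for *Ces1f* and 0.19 for *Ces2g*. Of the 7 differences 6 were negative without replicate 2, against 3 with it. The smallest adjusted p of the 7 was then 0.426. The difference between the proximal and the distal *Mtg16*-null effect was called by limma in 0 of 7 (0.0372% of genes), and 0 had an unadjusted p under 0.05 (3.85%).

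In proximal T/T crypts all 7 differences were positive, 0 were called (0.232% of genes) and 3 had an unadjusted p under 0.05 (12%). *Ces1g* had 8722 and 5945 in T/T against 4436 and 4051 in WT (0.76 ± 0.176, adjusted p = 0.207). *Ces2e* had 17529 and 18612 against 14098 and 14916 (0.32 ± 0.0818, adjusted p = 0.247). Together with *Ces1e* these were the tested members whose groups did not overlap (higher in 22.6% of genes). *Ces1g* was called with a block for the replicate number (0.76, adjusted p = 0.0482, 1.1% of genes called). Leaving out each library in turn gave 0.49 to 1.04 with adjusted p of 0.0381 to 0.614, where the arm left with 1 library is assumed to vary like the other.

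In distal T/T crypts 0 of 7 were called by limma (0.0369% of genes), by edgeR (0.0369%) or by DESeq2 (0.392%), and 2 had an unadjusted p under 0.05 (4.65%), *Ces2c* and *Ces2e*. *Ces2e* had 8397, 6826, 8237 and 7788 in T/T against 8828, 11959 and 8717 in WT (-0.32 ± 0.133, adjusted p = 0.863), and its groups did not overlap (lower in 3.31% of genes). Without the WT library at 11959 the difference was -0.17. *Ces2e* was thus higher than WT in every proximal and lower than WT in every distal T/T library. The difference of the 2 effects was 0.64 ± 0.156 (adjusted p = 0.292) and was not called by limma, nor were the other 6 (0.0229% of genes called). At an unadjusted p under 0.05 there were 2, *Ces2e* and *Ces2c* (4.45% of genes). For the difference between the distal effects of *Mtg16*-null and T/T, limma called 0 of 7 and 0 genes in all, and 0 of 7 had an unadjusted p under 0.05 (2.34% of genes).

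After DSS, *Ces2g* fell in *Mtg16*-null distal crypts, and the other 6 tested members had lower means as well. *Ces2g* had 785, 756, 1000.3 and 936 in *Mtg16*-null and 1729, 1931 and 1722 in WT. The groups stood apart, and the difference was -1.05 ± 0.159 (adjusted p = 0.0243), with 0.249% of 14476 genes called lower and 0.629% called in all. All 7 differences were negative, with a median of -0.65 against -0.00235 over all genes, and 4 had an unadjusted p under 0.05 (12.4% of genes).

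*Ces1f* had 423, 587, 831 and 811 in *Mtg16*-null against 974, 1958 and 1615 in WT (-1.18 ± 0.30, adjusted p = 0.114), again without overlap (lower in 5.26% of genes). *Ces1g* had 125, 117, 209 and 530.4 against 528, 983 and 573 (-1.73 ± 0.491, adjusted p = 0.156), where 1 *Mtg16*-null library reached the WT range. The values for *Ces1e*, *Ces2e*, *Ces2c* and *Ces2a* were -0.65, -0.49, -0.41 and -0.20. Without WT replicate 2 those of *Ces2e*, *Ces2c* and *Ces2a* were -0.24, -0.16 and -0.062.

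In this comparison libraries with the same replicate number deviated together. *Mtg16*-null replicate 4 has no WT library of its number, so a block for the number leaves it out of the difference. With that block the fit called 4 members lower (3.06% of genes called lower). They were *Ces1g* (-2.19, adjusted p = 0.00232), *Ces1f* (-1.30, adjusted p = 0.00232), *Ces2g* (-1.09, adjusted p = 0.00236) and *Ces1e* (-0.80, adjusted p = 0.0174). edgeR called *Ces2g* alone (adjusted p = 0.0218, 0.601% of genes) and DESeq2 called *Ces2g*, *Ces1f* and *Ces1g* (5.02% of genes). Without the block, the call of *Ces2g* depended on single libraries. Its adjusted p was 0.0940 without WT replicate 2, 0.0791 without WT replicate 3, 0.0707, 0.0591 and 0.0632 without *Mtg16*-null replicate 1, 3 or 4, and 0.106 with the *Xist* class of the library, a marker of sex, as a covariate. Leaving out any 1 library kept the difference between -1.12 and -0.99.

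T/T crypts after DSS had lower counts of all 7 tested members, and none passed the test. Limma called 0 of 13648 genes and edgeR 0, while all 7 members had an unadjusted p under 0.05 (8.77% of genes, 5.02% in the lower direction) and all 7 had T/T libraries wholly below WT (8.02% of genes). The median difference was -1.13 against 0.032 over all genes, and 46.5% of all genes had a negative difference. DESeq2 called 6 of the 7 lower, all except *Ces2a*, with 2.45% of genes called and 1.3% lower.

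*Ces1g* had 83.7, 100.2 and 39.1 in T/T and 321, 353 and 277 in WT, the widest difference (-2.18 ± 0.392, adjusted p = 0.172). *Ces1f* had 667, 494 and 413 against 1075, 1934 and 1241 (-1.41 ± 0.301, adjusted p = 0.232). *Ces2c*, the most abundant member, had 5545, 10049 and 6805 against 14317, 16994 and 19474 (-1.21 ± 0.253, adjusted p = 0.223). In each of the 3 genes the highest T/T library stayed below the lowest WT library. *Ces2g* had 795, 916 and 1107 against 1784, 1999 and 1509 (-0.91 ± 0.211, adjusted p = 0.257). The values for *Ces2a*, *Ces2e* and *Ces1e* were -1.13, -1.02 and -0.85.

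**Figure D5:**
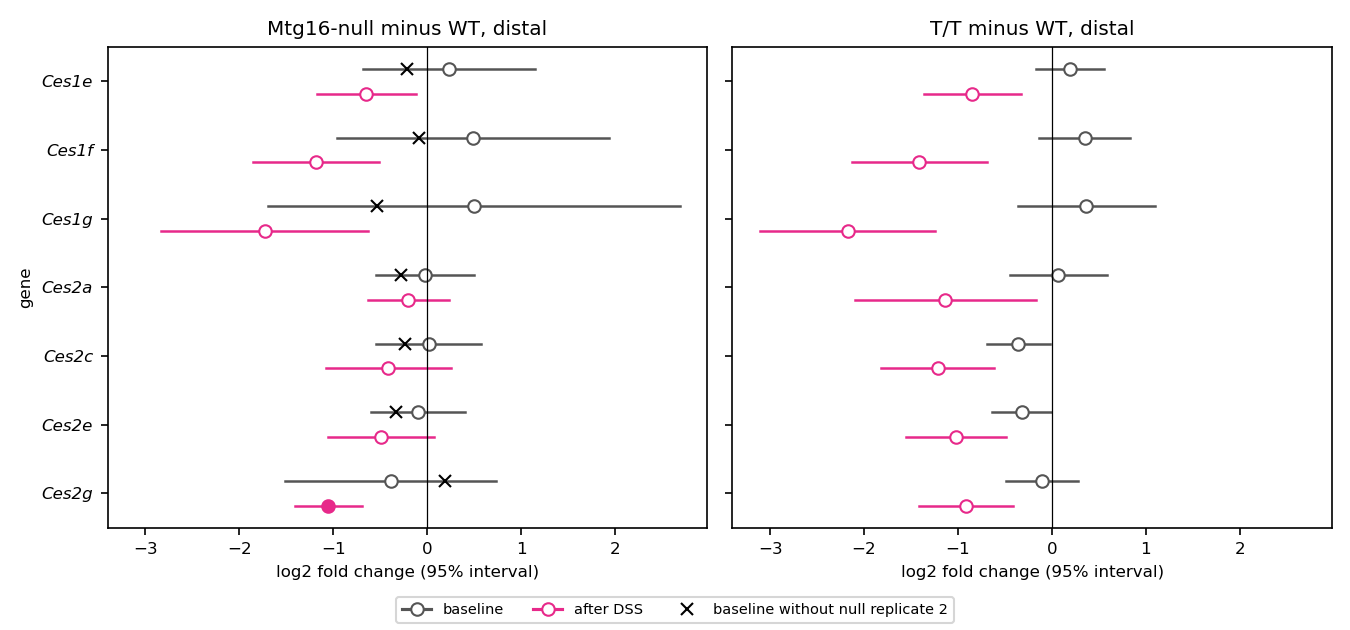
Log2 fold changes of the 7 tested genes in distal crypts (x axes, points with 95% intervals), for *Mtg16*-null minus WT (left) and T/T minus WT (right), at baseline in grey and after DSS in pink, with a filled point for adjusted p under 0.05 and crosses for baseline without *Mtg16*-null replicate 2. After DSS all points lie left of 0 in both mutants, and only *Ces2g* in *Mtg16*-null (-1.05) is filled.

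Whether the mutant effect after DSS differed from the effect at baseline was tested on the differences of the fold changes. For T/T, 0 of 7 were called (0.234% of genes), all 7 were negative with an unadjusted p under 0.05 (10.8% of genes), and *Ces1g* (-2.54 ± 0.50, adjusted p = 0.0544) and *Ces1f* (-1.76 ± 0.365, adjusted p = 0.0654) came nearest. *Ces1g* was called without T/T replicate 2 after DSS (-2.81, adjusted p = 0.0329), without T/T replicate 3 after DSS (-2.14, adjusted p = 0.0422) or without WT replicate 2 at baseline (-2.92, adjusted p = 0.0337). *Ces1f* was called without that WT library too (-2.04, adjusted p = 0.0339). For *Mtg16*-null, 0 of 7 were called (0.00738% of genes) and 1, *Ces1f*, had an unadjusted p under 0.05 (3.37%), with *Ces2g* at -0.67 (adjusted p = 0.9995). Without the library labelled distal *Mtg16*-null replicate 2, *Ces2g* was called (-1.24 ± 0.208, adjusted p = 0.0142). The shares of all genes called in these fits without 1 library are not given, so the calls are not set against a background.

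Ranges of summed markers of other cell types after DSS follow, some overlapping between genotypes and some not, and the sums were not tested. As single genes, no marker of any list was called in T/T. In *Mtg16*-null 1 of 6 myeloid, 1 of 6 enteroendocrine and 2 of 4 tuft markers were called. So were 1 of 8 absorptive colonocyte and 1 of 5 small intestinal markers. Sums of stem cell, small intestinal, smooth muscle and endothelial markers overlapped between genotypes in both mutants and are left out. All 6 myeloid markers were listed, and their summed level was 108 to 345 CPM in *Mtg16*-null against 16.6 to 64.3 in WT, and 41.3 to 48.0 in T/T against 11.9 to 26.9 in WT. Of 6 goblet cell markers 5 were listed, and their sum was 10404 to 15706 CPM in *Mtg16*-null against 13610 to 16325 in WT, and 12762 to 13871 in T/T against 20891 to 23276 in WT. The 7 pan-epithelial markers were all present, with summed levels of 15537 to 19681 CPM in *Mtg16*-null against 14832 to 18842 in WT, and of 15163 to 21559 in T/T against 18382 to 25009 in WT. Enteroendocrine markers summed to 247 to 337 CPM in *Mtg16*-null against 141 to 218 in WT, and to 239.8 to 322 in T/T against 148 to 236 in WT. Tuft cell markers were at 7.66 to 8.92 CPM in *Mtg16*-null against 10.4 to 15.0 in WT, and at 8.09 to 12.0 in T/T against 10.9 to 22.7 in WT. Absorptive colonocyte markers had 2311 to 3409 CPM in *Mtg16*-null against 1305 to 3496 in WT, and 2056 to 3574 in T/T against 3113 to 4089 in WT. Plasma cell markers (3 of 4 listed) had 9.05 to 23.8 CPM in *Mtg16*-null against 5.35 to 9.30 in WT, and 9.62 to 14.2 in T/T against 4.35 to 7.41 in WT. Adipocyte markers had 2.11 to 4.17 CPM in *Mtg16*-null, above all 3 WT libraries (the lowest at 1.06), and 3.31 to 5.08 in T/T against 1.67 to 2.89 in WT. Fibroblast markers had 8.48 to 78.3 CPM in *Mtg16*-null against 7.08 to 9.01 in WT, and 2.29 to 14.9 in T/T against 2.97 to 7.33 in WT. T cell markers (3 of 4 listed) had 4.95 to 15.5 CPM in *Mtg16*-null against 5.89 to 12.3 in WT, and 5.91 to 6.35 in T/T against 6.98 to 7.77 in WT. Both mutants also lay lower on the scale from proximal to distal, as given above. The part of these shifts in the carboxylesterase values was not tested.

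In tumors, 0 of the 7 members were called and 0 had an unadjusted p under 0.05 (2.47% of 15900 genes). Limma and edgeR called 0 genes in all and DESeq2 0.151%, with none of the 7 among them. Differences ranged from -0.18 to 1.05 and the groups overlapped in all 7. *Ces2a*, for instance, had 1063, 1018 and 560.4 in T/T against 950.0, 271 and 264 in WT. Tumors held stroma that crypts lacked, with fibroblast markers at 2616 to 3574 CPM against at most 20.5 in baseline crypts, and myeloid markers at 458 to 862 against 6.08 to 21.8. Pan-epithelial markers were at 9302 to 14682 CPM in tumors against 13539 to 19678 in baseline crypts. In tumors a lower level in epithelial cells and a smaller epithelial share cannot be told apart.

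Other carboxylesterases were followed for context. Of 11 listed genes, *Ces1b*, *Ces2b* and *Ces2f* reached the count filter in most tables. In WT crypts *Ces2f* (431 to 1933 distally against 13.5 to 39.3 proximally, 5.09, adjusted p = 2.55e-07) was higher distally, and *Ces2b* (245 to 401 against 589 to 1022, -1.26, adjusted p = 3.91e-05) was higher proximally. *Ces1b* had 41.1 to 101 distally against 0 to 28.7 proximally, a mean below 10 there, and is given by its values. None of the 3 was called in any genotype comparison or after DSS in WT. *Ces1b*, the copy next to *Ces1c*, had 131, 34.5, 163 and 176 in distal *Mtg16*-null against 59.0 to 104 in WT (0.60, adjusted p = 0.9998). The 34.5 belongs to replicate 2, and the other 3 lay above every WT library, as 4.2% of genes did without replicate 2. The *Ces1b* counts were 46.9 and 50.3 in *Mtg16*-null against 30.9 and 7.24 in WT proximally, also without overlap (1.61, adjusted p = 0.833, higher in 17.5% of genes). After DSS the *Ces1b* counts were lower in T/T (7.45 to 12.9 against 33.2 to 35.7 in WT, -1.73, adjusted p = 0.198), without overlap (lower in 8.02% of genes). In *Mtg16*-null after DSS they were 13.3 to 75.8 against 35.2 to 60.5 in WT (-0.86, adjusted p = 0.624). These levels are far below those of *Ces1c* in the same *Mtg16*-null libraries. Of the stretches of 31 bases in its transcript, *Ces1c* shares 21.25% with *Ces1b*, so the counting divides some reads between these genes by estimate.

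Among 18 other ester and lipid hydrolases, 16 were tested in each table. In WT crypts 13 were lower distally and 0 higher (22% and 20.1% of all genes), with a median of -0.55, led by monoacylglycerol lipase *Mgll* (-6.45), lipoprotein lipase *Lpl* (-4.64), the cholesteryl ester hydrolase *Nceh1* (-2.55) and butyrylcholinesterase *Bche* (-1.67). After DSS in WT, *Bche* (-3.04), the paraoxonase *Pon3* (-0.95) and arylacetamide deacetylase *Aadac* (-0.91) fell and the fatty acid amide hydrolase *Faah* (0.51) rose, with 12 not called, a median of 0.10 and 35.6% of all genes called. In *Mtg16*-null crypts after DSS, *Lpl* rose (1.87, adjusted p = 0.0392), and the other 15 were not called (median -0.00251). In the remaining 6 comparisons 0 of 16 were called, with medians of -0.10 to 0.11.

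Among 16 nuclear receptors and other regulators of carboxylesterase genes, 11 differed between WT segments, 9 lower distally and 2 higher (22% and 20.1% of all genes), with a median of -0.53. The intestinal factors *Gata4* (-2.98) and *Cdx2* (-2.42) and the lipid-sensing receptor *Pparg* (-1.56) were higher proximally, and *Nr1i3*, the drug-sensing receptor CAR, was higher distally (2.77, adjusted p = 4.14e-08). After DSS in WT 2 of 15 tested rose and 4 fell (median 0.06, with 35.6% of all genes called), the latter led by the glucocorticoid receptor *Nr3c1* (-2.31) and the aryl hydrocarbon receptor *Ahr* (-1.23). In *Mtg16*-null crypts after DSS 1 was called, *Cdx2*, which rose (0.77, adjusted p = 0.0431, list median -0.08). In the other 6 comparisons 0 of 15 or 16 were called, with medians of 0.03 to 0.19.

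Some genes had levels that followed those of a member across the 14 conditions. Likeness was measured as the root mean square of the log2 differences after centring, over 12965 candidate genes, where 0 is the same pattern. Among the closest were *Cth* (0.217) for *Ces2e*, *0610005C13Rik* (0.249) and the brush border protease *Mep1a* (0.27) for *Ces2c*, *Edn2* (0.286) for *Ces2a*, *B4galnt2* (0.3025) for *Ces1e*, *D630033O11Rik* (0.335) and the fatty acid sensor *Ppara* (0.362) for *Ces1d* and the bilirubin-conjugating enzyme *Ugt1a1* (0.402) for *Ces1f*. *Ces1g* (*Vnn1*, 0.677) and *Ces1c* (*Dll3*, 1.29) had no close match. Among the members, *Ces2a* and *Ces2c* (0.272) and *Ces1e* and *Ces2c* (0.292) were most alike, and *Ces1c* and *Ces1g* least (3.54). The conditions share segments, requests and colonies, and the measure is a description.

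Markers of other cells were listed to see what else the crypts held. Hepatocyte markers are relevant because *Ces1* enzymes are best known from liver. *Ahsg* was at 0 in 35 of 42 libraries, *Fgb* in 31, *Apoc3* in 20 and *Serpina1c* in 16, while *Alb* (0.0205 to 4.41 CPM) and *Ttr* (1.06 to 46.8 CPM) were detected in every library. In WT distal crypts *Ttr* (3.74) and *Alb* (3.72), the 2 hepatocyte markers tested, were higher than in proximal crypts, so they moved with *Ces1c* and *Ces2g* there. The summed hepatocyte markers had 16.9 to 29.99 CPM in T/T crypts after DSS against 33.8 to 39.3 in WT, and 17.3 to 20.3 in T/T tumors against 10.8 to 14.7 in WT. Their part in the carboxylesterase values was not tested.

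Of the other marker lists, most had called members between WT segments, where 20.1% of all genes were called higher and 22% lower distally. Distally higher and lower were 4 and 4 of 8 absorptive colonocyte, 1 and 0 of 6 stem cell, 4 and 1 of 5 goblet, 1 and 4 of 6 enteroendocrine and 0 and 3 of 4 tuft markers. The same counts were 0 and 4 of 8 for small intestinal epithelium, 0 and 3 of 3 for plasma cells and for T cells, 2 and 1 of 5 for myeloid cells, 0 and 1 of 4 for fibroblasts, 1 and 0 of 3 for smooth muscle, 1 and 1 of 2 for endothelium, 0 and 1 of 1 for adipocytes and 3 and 0 of 7 for pan-epithelial markers. In baseline mutants 1 of 5 goblet markers was called, *Tff3*, higher in proximal *Mtg16*-null (1.65) and proximal T/T crypts (0.92), where the list medians were -0.48 and -0.27. The other called markers were 4 of 6 enteroendocrine markers, higher in distal *Mtg16*-null crypts (*Tph1* 1.72, *Neurod1* 1.59, *Chga* 1.52 and *Chgb* 1.48). In *Mtg16*-null crypts after DSS, *Guca2a* (1.16), *Neurog3* (1.66) and the macrophage lysozyme *Lyz2* (3.29) were higher and the tuft cell genes *Dclk1* (-2.13), *Trpm5* (-2.07) and the ileal gene *Fabp6* (-1.39) lower. They were 1 of 8 absorptive colonocyte (list median 0.094), 1 of 6 enteroendocrine (0.69) and 1 of 6 myeloid markers (2.42). The others were 2 of 4 tuft (-1.05) and 1 of 5 small intestinal markers (-0.071). Limma called 0.629% of all genes in this comparison.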

How the data were processed

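RNA was sequenced from 42 libraries in 14 conditions. Per the labels, the authors trimmed reads with fastp 0.20.0, quantified transcripts with Salmon 1.3.0 against mm10 and scaled gene counts with DESeq2 1.26.0 in R 3.6.3. The 9 deposited tables hold normalised counts, a signal that the authors made by dividing each library's counts by its size factor. Fold changes and p-values deposited beside them were not used. Replicates of a group were compared as 59 pairs in the 7 tables with recovered whole reads, where some pairs recur. In these pairs 40.2 to 83.5% of genes differed beyond counting error, so none of them was a single library deposited again. The proximal *Mtg16*-null and the proximal T/T replicates were not compared in this way.

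Each table was fitted separately with limma 3.58.1 (R 4.3.3, trend) on log2(normalised count + 1) over genes whose mean normalised count reached 10; p-values were adjusted by Benjamini and Hochberg's method across every gene tested, and 0.05 was the threshold. Values after ± are standard errors of log2 differences, or SDs where n is given, and log2 values understate changes of low genes. Whole reads, within a tolerance of 0.02 reads, were recovered in 7 tables, where edgeR 4.0.16 and DESeq2 1.42.0 were run as alternatives. Intervals and depth cover counting error and the spread between libraries only. The fits were tested on simulated data. The members and gene lists were chosen with earlier results of these data known. Text names the 9 members, at most 4 called genes per list with the largest differences, genes most like a member (that of *Ces2g* is not reported here) and *Cbfa2t3* as a check of labels.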

Additional observations from a re-analysis of the deposited data

Results flagged for a closer look

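The library labelled distal *Mtg16*-null replicate 2 was the highest of its 4 by Dixon's test in 4 members. It had 1841 normalised counts of *Ces1d* where the other 3 had 352 to 478, 1110 of *Ces1e* against 249 to 390, 7254 of *Ces1g* against 266 to 555 and 8908 of *Ces2a* against 4226 to 4622. The test was run on 36 sets of 4 libraries, of which chance flags about 1 in 20. This library also lay beside the proximal libraries on the segment scale, and the distal *Mtg16*-null comparison is given with and without it above.

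*Ces2e* moved in opposite directions in the 2 segments of T/T mice, 0.32 on the log2 scale in proximal and -0.32 in distal crypts, with each library of 1 group beyond the other group in both. Leaving out 1 library at a time, the distal value ran from -0.40 to -0.17. The test of the difference gave an adjusted p of 0.292 (limma).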

How the results depend on the processing

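Over 208 alternative counts of members called, 192 stayed within 1.5 times the main count, 16 moved and 0 reversed. Of 686 alternative values of single members, 646 kept direction and side of the threshold, 11 lost and 20 gained a call, 2 moved and 7 reversed. The reversals were *Ces1g* in proximal *Mtg16*-null crypts without WT replicate 1 (0.11) and, in distal *Mtg16*-null crypts, *Ces1f*, *Ces1g* and *Ces2g* without *Mtg16*-null replicate 2 (-0.087, -0.53 and 0.19) and within request 4149 (-0.28, -0.90 and 0.32). Over all libraries left out in turn these ran from -1.48 to 0.11 for *Ces1g* in proximal *Mtg16*-null crypts and, distally, from -0.087 to 0.93 for *Ces1f*, -0.53 to 1.05 for *Ces1g* and -0.64 to 0.19 for *Ces2g*. These values cover selected members of each comparison. Outside them, leaving out distal *Mtg16*-null replicate 2 also changed the sign of *Ces1e* (0.23 to -0.21), *Ces2c* (0.016 to -0.23) and *Ces1d* (0.41 to -0.13). Within request 4149, members called between WT segments were 4 of the 8 that reached the count filter in both segments. DESeq2 called 3 members in *Mtg16*-null and 6 in T/T crypts after DSS and 1 in WT after DSS, and the *Xist* class as a covariate left 0 in *Mtg16*-null crypts after DSS. The cause was not tested. Leaving out 1 library gave 0 to 1 members in proximal T/T crypts, 0 to 1 in *Mtg16*-null crypts after DSS, 0 to 1 for the *Mtg16*-null difference between DSS and baseline and 0 to 2 for the T/T one.

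With the replicate number as a block, 4 members were called in *Mtg16*-null crypts after DSS and 1 in proximal T/T crypts, and no other count of members changed. Where a number occurs in 1 group only, as *Mtg16*-null replicate 4 after DSS, the block leaves that library out of the difference. Libraries with the same number deviated together in *Mtg16*-null crypts after DSS (correlations of 0.554, 0.460 and 0.317), and in no other comparison did 3 or more pairs all exceed 0.1. The correlations were 0.147 in both proximal comparisons (2 pairs each), 0.0155 to 0.369 in distal *Mtg16*-null crypts, where the numbers also follow the request, and -0.0294, -0.708 and -0.766 in T/T crypts after DSS. Over all genes, limma called 33 in distal *Mtg16*-null crypts against 200 by DESeq2 and 1 with the block, 5 against 53 and 0 in distal T/T, 91 against 727 and 1271 in *Mtg16*-null after DSS, 0 against 334 and 0 in T/T after DSS and 0 against 24 and 0 in tumors. The block gave 32 against 9 in proximal *Mtg16*-null, 151 against 32 in proximal T/T (2 without the count filter) and 2679 against 4833 in WT after DSS. edgeR and DESeq2 were not run on the 2 proximal mutant tables, where whole reads were not recovered. Low counts of *Ces1c* in proximal WT crypts limit its ratios there.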
